A study of Homo sapiens with 10 samples.

Results

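The genes described here encode the proteasome, the protein-degrading machine of the cell, together with factors that activate it, assemble it or switch on its genes. They were chosen by symbol, with no measured value in the rule, though earlier results of these data were known. The 36 members comprised 7 alpha-ring, 7 beta-ring, 6 cap ATPase, 4 other cap base and 8 cap lid subunits, the activators PSME3 and PSME4, the assembly factor POMP and the transcription factor NFE2L1. Of these, 35 matched 1 of the 57445 gene identifiers in the count tables, and all 35 passed the filter on low counts. PSMB3 matched no identifier and was not analysed here.

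The samples were 10 RNA-seq libraries of PC3, an established human prostate cancer line grown from a bone metastasis, 2 in each of 5 groups. One group stably expressed RNF2 shRNA1 and another RNF2 shRNA2, both labelled as hairpins against RNF2, the ubiquitin ligase subunit of Polycomb repressive complex 1. Cells of the third group were treated with PRT4165 for 48 hours and those of the fourth with GW-516 for 48 hours, and the last group stably expressed a Scramble shRNA. PRT4165 is known as an inhibitor of the histone H2A ubiquitin ligase activity of that Polycomb complex, while GW-516 is given by its code name alone. The labels give no dose, no vehicle-treated group, and no word on whether paired libraries are separate cultures. P-values therefore measure the spread between these samples alone, and that spread may be technical.

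The proteasome consists of a barrel and a cap. Alpha-ring subunits gate the barrel, and the beta ring inside it holds the sites that cut proteins. The cap base has a ring of ATPases that unfold substrates and subunits that receive ubiquitin chains, while the lid holds the enzyme that removes the chains. NFE2L1 is a transcription factor held at the endoplasmic reticulum that is known to be released, and to raise proteasome genes through antioxidant response elements, when proteasome activity is low.

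RefSeq (GRCh38.p14) gave promoter windows of 300 bases, 250 before to 50 after a start, for 30 of the 35 members. An antioxidant response element core was searched as TGACNNNGC and a CCAAT box as CCAAT, on both strands. The first set of letters also takes in AP-1 sites that are followed by GC. The element core lay in a window of 8 members (26.7%), against 16.1% of 27305 genes with a window, and these were ADRM1, PSMA4, PSMC4, PSMC5, PSMD1, PSMD12, PSMD3 and PSME4. The CCAAT letters lay in windows of 17 members (56.7%), against 39.7% of those genes. By single windows the element core was in 9 of 38 member windows (23.7%) and in 13.3% of all 35116. Below are the 250 bases before the start of the subunit that differed most between the hairpin groups (ADRM1), of 2 lid subunits with the element core (PSMD3 and PSMD12), of the activator that moved against most members (PSME4), and of NFE2L1. Capitals mark the searched motifs on either strand, which did not overlap each other.
ADRM1, chr20:62302646-62302895, forward strand: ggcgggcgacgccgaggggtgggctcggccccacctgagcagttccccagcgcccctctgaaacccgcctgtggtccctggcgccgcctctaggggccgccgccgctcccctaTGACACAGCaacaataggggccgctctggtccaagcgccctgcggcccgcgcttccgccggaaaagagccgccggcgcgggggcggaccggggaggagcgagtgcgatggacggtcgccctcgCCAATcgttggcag
PSMD3, chr17:39980557-39980806, forward strand: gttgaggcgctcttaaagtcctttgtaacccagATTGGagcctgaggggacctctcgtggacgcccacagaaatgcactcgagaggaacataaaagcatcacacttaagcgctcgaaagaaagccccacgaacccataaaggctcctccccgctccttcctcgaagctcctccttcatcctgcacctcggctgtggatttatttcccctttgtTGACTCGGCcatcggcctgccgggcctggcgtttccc
PSMD12, chr17:67366578-67366827, reverse strand: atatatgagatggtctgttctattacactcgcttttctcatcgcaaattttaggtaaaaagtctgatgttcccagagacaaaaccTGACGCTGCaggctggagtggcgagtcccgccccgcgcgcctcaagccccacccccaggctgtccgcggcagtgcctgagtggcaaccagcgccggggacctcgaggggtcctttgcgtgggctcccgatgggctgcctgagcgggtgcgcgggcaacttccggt
PSME4, chr2:53970994-53971243, reverse strand: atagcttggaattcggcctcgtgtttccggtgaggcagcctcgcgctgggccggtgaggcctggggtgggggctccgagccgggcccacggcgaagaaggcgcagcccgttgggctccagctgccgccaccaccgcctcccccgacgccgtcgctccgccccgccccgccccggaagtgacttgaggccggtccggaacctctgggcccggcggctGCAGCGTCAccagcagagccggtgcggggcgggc
NFE2L1, chr17:48048109-48048358, forward strand: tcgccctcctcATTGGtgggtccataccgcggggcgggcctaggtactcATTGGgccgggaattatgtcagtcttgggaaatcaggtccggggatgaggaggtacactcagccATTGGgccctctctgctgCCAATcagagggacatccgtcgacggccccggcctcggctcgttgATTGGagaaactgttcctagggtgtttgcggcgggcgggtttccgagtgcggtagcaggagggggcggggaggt
ADRM1 and PSMD3 carried both motifs, PSMD12 and PSME4 the element core alone, and NFE2L1 had 5 CCAAT boxes and no element core. These are matches of letters, and binding was not measured. The first bases after the RefSeq start were found in a GENCODE transcript of the same gene for 4 of these genes and not for PSME4, so its start is less certain.

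The library totals lay between 65877850 and 108380198 counts, over 23340 to 25920 detected genes. The highest total was that of RNF2 shRNA2 replicate 2, the only library with the tag L005only in its header name. The part of that tag or total in the difference between the RNF2 shRNA2 libraries was not tested. Between the libraries of a pair the chi-square per degree of freedom was 2.19 in RNF2 shRNA1, 2.20 in GW-516 and 2.15 in Scramble, or 1.09, 1.10 and 1.08 after halving the values because each read end was counted. It was 12.2 in RNF2 shRNA2 and 6.89 in PRT4165. Each count of members is therefore also given after the 3 near-identical pairs were each added up and used as 1 sample. RNF2 stood at 12.1 and 12 CPM (library-size-scaled counts, TMM-normalized) in RNF2 shRNA1 and at 30.6 and 28.3 CPM in Scramble (log2 -1.29, edgeR adjusted p = 2.3e-15). RNF2 was not reduced under the RNF2 shRNA2 label, at 33.5 and 35.3 CPM (log2 0.23, edgeR adjusted p = 0.001), while BMI1, another subunit of the Polycomb complex, stood at 53.0 and 61.6 CPM there, against 251 and 255 CPM in Scramble (log2 -2.14). RNF2 shRNA2 in the values given here therefore means the libraries so labelled, whose direction is not that of a fall in RNF2. Of the 5 epithelial markers, KRT8, KRT18 and EPCAM had at least 6805 counts in every library, KRT19 487 and 482 CPM in Scramble, and CDH1 799 to 3457 counts. Against Scramble, 2 of the 5 were higher and 2 lower in RNF2 shRNA1 (median log2 0.03), 1 and 3 in RNF2 shRNA2 (-0.30), 4 and 1 in PRT4165 (0.16), and 4 and 1 in GW-516 (0.54). CDH1, the epithelial cadherin, had the largest increase of them, 164% in PRT4165 and 154% in GW-516. The lowest log2 among the 5 was -0.41 in RNF2 shRNA1, -0.46 in RNF2 shRNA2, -0.45 in PRT4165 and -0.20 in GW-516. The part of these markers in the proteasome results was not tested. Counts of KLK3 ran from 0 to 2, of CHGA from 0 to 2, of PTPRC from 0 to 14, of CD14 from 4 to 37 and of DCN from 0 to 26. COL1A1, a collagen of stromal cells, had 1064 to 4128 counts, or 18.8 and 19.8 CPM in RNF2 shRNA1, 15.2 and 16.7 in RNF2 shRNA2, 25.3 and 29.7 in PRT4165, 46.9 and 46.1 in GW-516 and 26.3 and 27.1 in Scramble, and its part in the results was not tested.

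Per kilobase of the deposited gene length, the beta ring had the highest median among the parts of core and cap. Its 6 measured genes averaged 65.7 to 118 CPM per kb over all libraries, with a median of 88.0. The base subunits other than ATPases had a median of 62.0 CPM per kb, the ATPases 40.3, the alpha ring 34.6 and the lid 31.6. Single genes crossed that order, with PSMD2 of the base at 88.0, above PSMB7 at 82.0. The deposited length counts every annotated exon base, such as 1420 in PSMB6 and 9095 in PSMD6, so the order depends on the annotation. PSMA7, an alpha-ring subunit, was first of the 35 at 162 CPM per kb, followed by the catalytic PSMB5 at 118 and by PSMB4 at 105. NFE2L1 averaged 50.9, POMP 50.5, PSME3 37.3 and PSME4 28.4 CPM per kb. PSMA6 at 3.25 and PSMA2 at 1.43 CPM per kb came last. Both of those values, and that of PSMA1 at 10.7, are uncertain, since 14.2%, 14.6% and 32.9% of their exon bases lie in the exons of another gene on the same strand. PSMB5 shares 6.18% of its exon bases in that way. The germline subunit PSMA8 had 0 to 2 counts and the thymus subunit PSMB11 0 to 4. Of 31 pseudogenes named after members, 2 reached 50 counts in any library, and the larger, PSMC1P1, came to at most 3.13% of the PSMC1 count.

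Summed over the 35 members, RNF2 shRNA1 was lowest and Scramble highest on the TMM-normalized scale. The members took 5079 and 5070 CPM in RNF2 shRNA1, 6163 and 5915 in RNF2 shRNA2, 5788 and 5753 in PRT4165, 5977 and 5944 in GW-516, and 6274 and 6289 in Scramble. Every library of the 4 other groups lay below both Scramble libraries. As a share of all counts, with no TMM factor, the members took 0.494% in both RNF2 shRNA1 libraries, 0.604% and 0.585% in RNF2 shRNA2, 0.577% in both PRT4165 libraries, 0.627% and 0.622% in GW-516, and 0.624% and 0.625% in Scramble. On that scale GW-516 overlapped Scramble, and the rest stayed below it. The TMM factors were 1.05 in both GW-516 libraries and at most 1.004 elsewhere. All values are shares of a library, so fewer cells with a transcript and less of it per cell cannot be told apart, nor can a change in total RNA be seen.

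**Figure D1:**
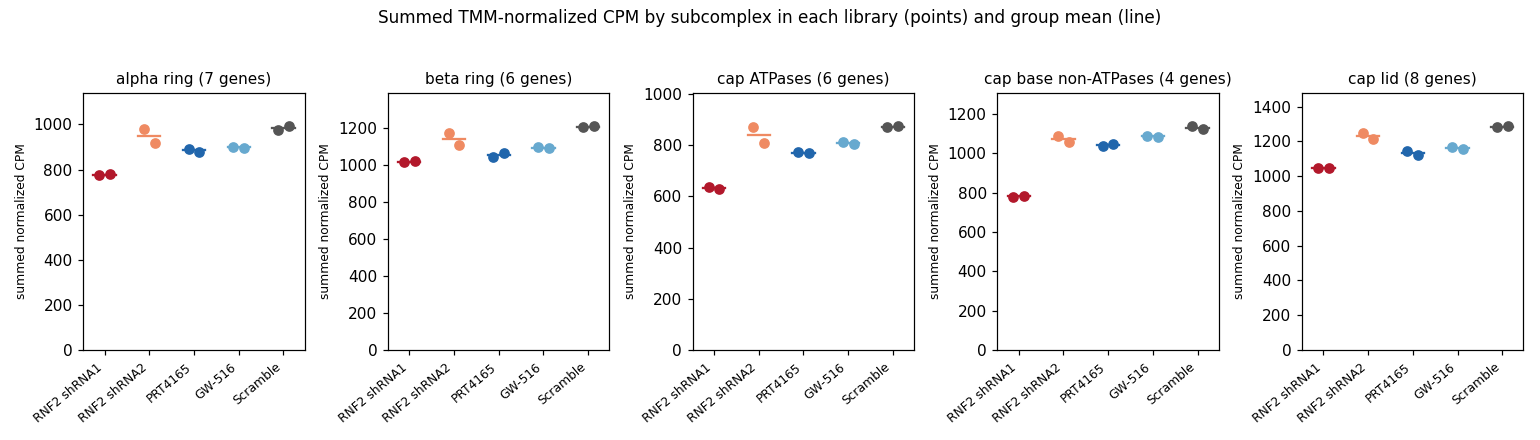
Summed TMM-normalized CPM (vertical axis, from 0) of the alpha ring, beta ring, cap ATPases, other cap base subunits and cap lid in each library (points), with group means (lines). RNF2 shRNA1 is the lowest group in all 5 panels, and the 2 RNF2 shRNA2 libraries lie apart from each other.

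In the core, the 3 catalytic subunits were lower than Scramble in every other library. Many of the 18478 genes tested also had both libraries of a group below both Scramble libraries. That share was 40% in RNF2 shRNA1, 33.9% in RNF2 shRNA2, 35.7% in PRT4165 and 40.1% in GW-516. In the same order, 33, 17, 31 and 27 of the 35 members did so. Both libraries lay above for 37.8%, 34.7%, 32.6% and 38.7% of genes and for 2, 7, 2 and 3 members. The share of genes with all 8 libraries below Scramble was not computed. PSMB5, the chymotrypsin-like subunit (ENSG00000100804.14, chromosome 14, 23485752 to 23504439, reverse strand, GRCh37), had 184 and 183 CPM in RNF2 shRNA1, 222 and 209.7 in RNF2 shRNA2, 199 and 206 in PRT4165, 211 and 214 in GW-516, and 231 and 230.0 in Scramble. Both RNF2 shRNA1 libraries were the lowest, and no library of another group reached Scramble. PSMB6, the caspase-like subunit (ENSG00000142507.5, chromosome 17, 4699439 to 4701790, forward strand, GRCh37), had 134 and 135 CPM in RNF2 shRNA1, 140.0 and 132 in RNF2 shRNA2, 121 and 127 in PRT4165, 124 and 126 in GW-516, and 148 and 146 in Scramble. All 8 libraries were again below Scramble, those of the compounds the furthest. PSMB7, the trypsin-like subunit (ENSG00000136930.8, chromosome 9, 127115745 to 127177723, reverse strand, GRCh37), had 169.9 and 172 CPM in RNF2 shRNA1, 175 and 157 in RNF2 shRNA2, 171 and 171 in PRT4165, 184 and 180.2 in GW-516, and 191 and 194 in Scramble. The 2 libraries labelled RNF2 shRNA2 formed the widest pair, with all 8 below Scramble. Among the other core subunits, PSMA3 of the alpha ring had 150.4 and 149 CPM in RNF2 shRNA1, 169 and 154 in RNF2 shRNA2, 159 and 156 in PRT4165, 151 and 148 in GW-516, and 187 and 194 in Scramble. It too was below Scramble in all 8. PSMB1, a beta-ring subunit without a cutting site, had 178 and 182 CPM in RNF2 shRNA1, 196 and 186 in RNF2 shRNA2, 167 and 168 in PRT4165, 181 and 179 in GW-516, and 194 and 196 in Scramble, overlapping Scramble in RNF2 shRNA2 alone. PSMB4, a further beta-ring subunit, had 200.2 and 199 CPM in RNF2 shRNA1, 243 and 235 in RNF2 shRNA2, 212 and 221 in PRT4165, 221 and 223 in GW-516, and 251 and 253 in Scramble, below Scramble in all 8 libraries.

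In the cap, the ATPases PSMC3, PSMC4 and PSMC5 and the base subunits PSMD2 and ADRM1 were lowest in RNF2 shRNA1. The ATPase PSMC1 had 83.1 and 78.5 CPM in RNF2 shRNA1, 94.4 and 76.9 in RNF2 shRNA2, 89.3 and 89.0 in PRT4165, 93.7 and 92.7 in GW-516, and 104 and 106 in Scramble. All 8 were below Scramble, and the RNF2 shRNA2 pair was the widest. The ATPase PSMC3 had 112 and 114 CPM in RNF2 shRNA1, 163 and 161 in RNF2 shRNA2, 141 and 143 in PRT4165, 136 and 132 in GW-516, and 162 and 164 in Scramble, with RNF2 shRNA2 overlapping Scramble. The ATPase PSMC4 had 89.6 and 87.2 CPM in RNF2 shRNA1, 127 and 119 in RNF2 shRNA2, 112 and 109 in PRT4165, 131 and 131 in GW-516, and 135 and 131 in Scramble, with GW-516 just under Scramble. The ATPase PSMC5 had 140.4 and 139 CPM in RNF2 shRNA1, 226 and 201 in RNF2 shRNA2, 181 and 183 in PRT4165, 194 and 195 in GW-516, and 199.9 and 198 in Scramble. RNF2 shRNA2 was above Scramble here, and the other groups were below it. PSMD2, the base scaffold on which shuttle proteins dock (ENSG00000175166.12, chromosome 3, 184016497 to 184026842, forward strand, GRCh37), had 352 and 358 CPM in RNF2 shRNA1, 465 and 447 in RNF2 shRNA2, 525 and 522 in PRT4165, 514 and 507 in GW-516, and 564 and 544 in Scramble. All 8 libraries were below Scramble, with RNF2 shRNA1 far below the rest. ADRM1, a ubiquitin receptor that also anchors the deubiquitinase UCHL5 (ENSG00000130706.8, chromosome 20, 60877149 to 60883918, forward strand, GRCh37), had 80.8 and 78.2 CPM in RNF2 shRNA1, 158 and 163 in RNF2 shRNA2, 102 and 118 in PRT4165, 152 and 149 in GW-516, and 125 and 126 in Scramble. Here RNF2 shRNA1 and PRT4165 lay below Scramble, and RNF2 shRNA2 and GW-516 above it. The lid subunit PSMD3 had 138 and 136 CPM in RNF2 shRNA1, 172 and 163 in RNF2 shRNA2, 144 and 151 in PRT4165, 164 and 165 in GW-516, and 171 and 170.0 in Scramble, overlapping Scramble in RNF2 shRNA2 alone. PSMD7, the lid partner of the deubiquitinase PSMD14, had 172 and 176 CPM in RNF2 shRNA1, 179 and 182 in RNF2 shRNA2, 173 and 167 in PRT4165, 149.5 and 147 in GW-516, and 192 and 195 in Scramble. GW-516 was lowest, and no library reached Scramble. The lid subunit PSMD12 had 145 and 139 CPM in RNF2 shRNA1, 181 and 183 in RNF2 shRNA2, 167 and 158 in PRT4165, 163 and 162 in GW-516, and 195 and 196 in Scramble, below Scramble in all 8 libraries.

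Outside core and cap, PSME3 lay below and PSME4 above Scramble in RNF2 shRNA1, PRT4165 and GW-516. PSME3, a nuclear activator that does not need ubiquitin (ENSG00000131467.6, chromosome 17, 40976402 to 40995774, forward strand, GRCh37), had 134 and 134 CPM in RNF2 shRNA1, 215 and 210.2 in RNF2 shRNA2, 183 and 184 in PRT4165, 165 and 171 in GW-516, and 212 and 218 in Scramble. RNF2 shRNA1 was lowest and RNF2 shRNA2 overlapped Scramble. PSME4, the other nuclear activator, known for a role in histone breakdown (ENSG00000068878.10, chromosome 2, 54091204 to 54197977, reverse strand, GRCh37), had 312 and 303 CPM in RNF2 shRNA1, 237 and 250.4 in RNF2 shRNA2, 339 and 312 in PRT4165, 340.4 and 332 in GW-516, and 246 and 239.7 in Scramble. RNF2 shRNA1, PRT4165 and GW-516 were above Scramble, and RNF2 shRNA2 overlapped it. POMP, the chaperone that builds the beta ring (ENSG00000132963.7, chromosome 13, 29233241 to 29253062, forward strand, GRCh37), had 66.1 and 64.3 CPM in RNF2 shRNA1, 80.1 and 79.6 in RNF2 shRNA2, 65.6 and 66.9 in PRT4165, 74.1 and 73.4 in GW-516, and 75.8 and 75.2 in Scramble. RNF2 shRNA2 was above Scramble and the other groups below. NFE2L1 (ENSG00000082641.11, chromosome 17, 46125691 to 46138849, forward strand, GRCh37) had 312 and 307 CPM in RNF2 shRNA1, 264 and 262 in RNF2 shRNA2, 305 and 307 in PRT4165, 332 and 333 in GW-516, and 269.6 and 271 in Scramble. RNF2 shRNA1, PRT4165 and GW-516 lay above Scramble, and RNF2 shRNA2 just under it.

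**Figure D2:**
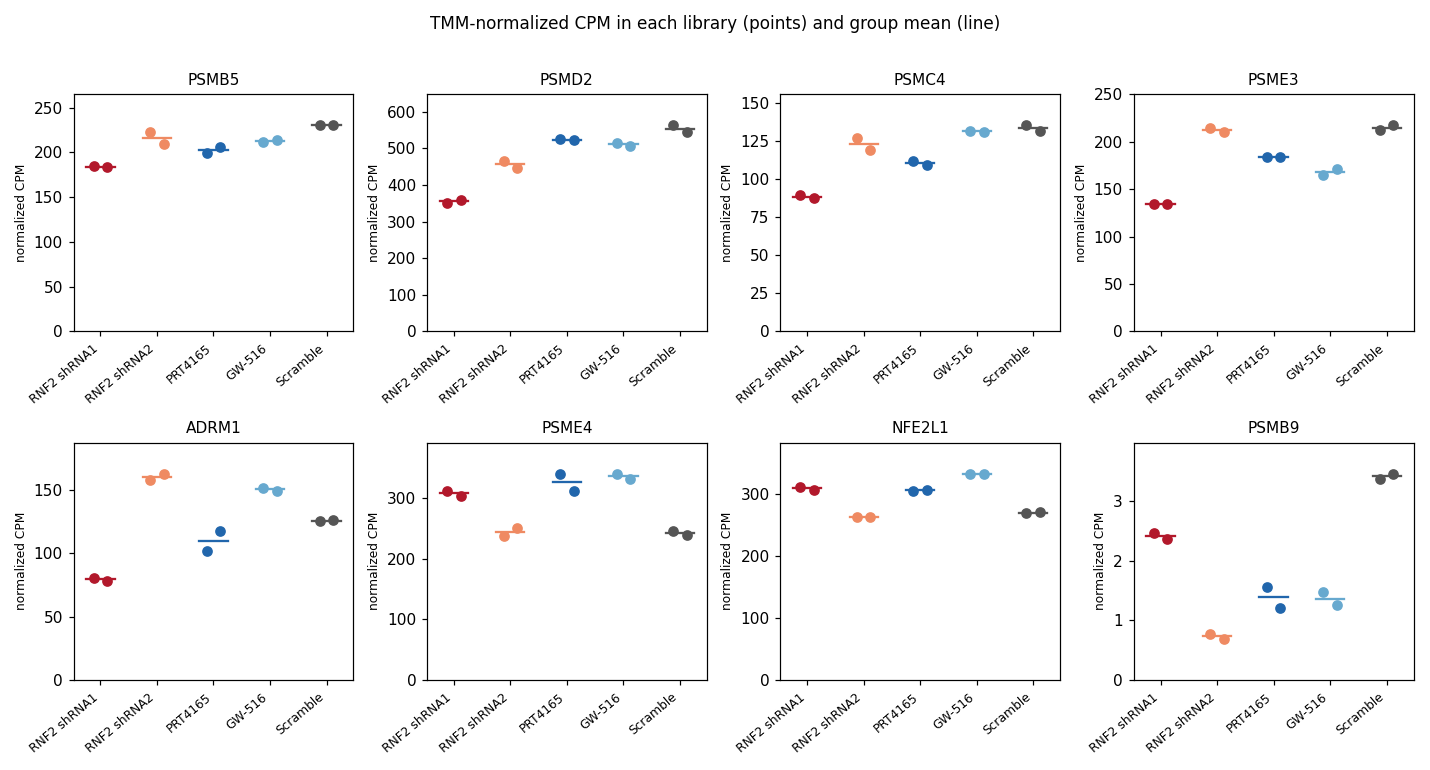
TMM-normalized CPM (vertical axes, from 0) of PSMB5, PSMD2, PSMC4, PSME3, ADRM1, PSME4, NFE2L1 and the immunoproteasome gene PSMB9 in each library (points), with group means (lines). PSMB5, PSMD2, PSMC4 and PSME3 are lowest in RNF2 shRNA1, PSME4 and NFE2L1 are raised in RNF2 shRNA1, PRT4165 and GW-516, and ADRM1 is low in RNF2 shRNA1 and high in RNF2 shRNA2.

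RNF2 shRNA1 against Scramble set the group with reduced RNF2 beside the control hairpin. Nearly the whole proteasome was lower in RNF2 shRNA1: 32 of 35 members were lower and 2 were higher, at an edgeR quasi-likelihood p adjusted by Benjamini-Hochberg below 0.05. The median member log2 fold change was -0.35, against -0.01 over all 18478 genes tested. The test called 28.6% of those genes lower and 26.2% higher. With the near-identical pairs summed, 24 members were lower and 2 higher, against 17.3% and 16.9% of 20352 genes. By place in the complex, the median log2 was lowest in the base: the base subunits other than ATPases had a median of -0.54, the ATPases -0.51, the alpha ring -0.35, the lid -0.31 and the beta ring -0.25. These medians are descriptions and were not tested against each other. With 1 hairpin that lowered RNF2 and 2 near-identical libraries of it, the hairpin and separate culture cannot be told apart.

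The largest decrease was in PSME3, which fell by 37.6% (log2 -0.68, SE 0.03, adjusted p = 1.7e-15). The ubiquitin receptor ADRM1 fell by 36.8% (log2 -0.66, SE 0.052, adjusted p = 3.7e-08). The base scaffold PSMD2 fell by 35.9% (log2 -0.64, SE 0.028, adjusted p = 8.9e-16). So the members that moved furthest were a nuclear activator and 2 base subunits. The ATPases PSMC2, PSMC3, PSMC4 and PSMC5 changed by log2 -0.51, -0.53, -0.59 and -0.51, and PSMC1 and PSMC6 by -0.38 and -0.19. The base subunit PSMD1 changed by log2 -0.44 and the ubiquitin receptor PSMD4 by -0.31. In the alpha ring all 7 genes fell, from log2 -0.15 in PSMA1 to -0.48 in PSMA7. In the beta ring all 6 measured genes fell, with PSMB5 at log2 -0.32 (SE 0.031), PSMB6 at -0.13 (SE 0.034), PSMB7 at -0.17 (SE 0.037) and PSMB1 at -0.11 (SE 0.031). PSMB1 thus had the smallest called decrease. In the lid 7 of 8 genes fell, with PSMD12 furthest at log2 -0.46, and the deubiquitinase PSMD14 stood at -0.28. PSMD8 was the 1 member not called (log2 -0.06, 95% interval -0.13 to 0.01, adjusted p = 0.12).

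Against this direction, PSME4 rose (log2 0.34, SE 0.036, adjusted p = 4.1e-08), and so did NFE2L1 (log2 0.20, SE 0.027, adjusted p = 7.5e-07). The assembly factor POMP fell (log2 -0.21, SE 0.037, adjusted p = 2.3e-05). Of these 34 calls 26 held in every alternative fit. Summing the near-identical pairs ended the calls of the catalytic PSMB6 (adjusted p = 0.22) and PSMB7 (0.095), of PSMB1 (0.29), and of PSMA1, PSMA2, PSMA5, PSMC6 and PSMD7.

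The libraries labelled RNF2 shRNA2 against Scramble showed a smaller and less uniform shift. Here 13 members were lower and 2 higher, with a median log2 of -0.05 against 0.01 over all genes. The test called 21% of genes lower and 21.1% higher. In either direction 15 of 35 members and 7772 of 18478 genes were called, so the count of members stood near the background, though most of these calls were decreases. With the pairs summed, 4 members were lower and 1 higher, against 13.2% and 10.8%, so neither share exceeded that of all genes. ADRM1 rose in these libraries (log2 0.35, SE 0.05, adjusted p = 4.4e-05), and so did the ATPase PSMC5 (log2 0.10, SE 0.038, adjusted p = 0.047). The scaffold PSMD2 fell (log2 -0.28, SE 0.027, adjusted p = 8.4e-09), as did PSMA3 (log2 -0.24, SE 0.036, adjusted p = 7.2e-06). PSMC1 had the largest called decrease (log2 -0.30, SE 0.087, adjusted p = 0.029) and PSMB4 the smallest (log2 -0.08, SE 0.029, adjusted p = 0.037). Among the catalytic subunits PSMB5 stood at log2 -0.09, PSMB6 at -0.11 and PSMB7 at -0.22, all called lower. PSME3, PSME4, POMP and NFE2L1 were not called, with log2 values of -0.02 (95% interval -0.08 to 0.04), 0.01 (-0.07 to 0.08), 0.08 (0.01 to 0.15, adjusted p = 0.077) and -0.04 (-0.09 to 0.02).

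The calls of ADRM1, PSMA3, PSMB7, PSMD2 and PSMD6 held in every alternative fit, and the other 10 of the 15 did not. On summed pairs the adjusted p was 0.22 for PSMB5, 0.16 for PSMB6, 0.054 for PSMC1 and 0.31 for PSMB4. The increase of PSMC5 was lost in several alternative fits and stood at log2 0.01 without RNF2 shRNA2 replicate 1 (adjusted p = 0.803). The number of members called lower was 8 without Scramble replicate 1, 6 without Scramble replicate 2 and 8 without RNF2 shRNA2 replicate 2.

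A direct comparison of both hairpins showed differences over most of the proteasome. Relative to RNF2 shRNA1, the libraries labelled RNF2 shRNA2 were higher in 28 members and lower in 2, with a median log2 of 0.29 against 0.01 over all genes. The test called 29.9% of genes higher and 29.2% lower. With the pairs summed, 22 members were higher and 2 lower, against 20.5% and 22.9%. ADRM1 differed most, with a log2 of 1.01 (SE 0.051, adjusted p = 1.8e-10), followed by PSME3 at 0.66 (SE 0.03, adjusted p = 1.8e-15) and the ATPase PSMC5 at 0.61 (SE 0.039, adjusted p = 1.4e-11). All 4 base subunits, 5 of 6 ATPases, 7 of 8 lid subunits, 6 of 7 alpha-ring genes and 4 of 6 measured beta-ring genes were higher. PSMB5 was among the beta-ring genes called higher, at log2 0.23, and the catalytic PSMB6 (0.02) and PSMB7 (-0.04) were not called. The smallest called difference was in PSMB1 (log2 0.08, SE 0.031, adjusted p = 0.024). PSME4 was lower (log2 -0.34, SE 0.036, adjusted p = 4.2e-08), and so was NFE2L1 (log2 -0.23, SE 0.027, adjusted p = 3.5e-08). Of the 30 calls 24 held in every alternative fit, and that of PSMB1 did not (adjusted p = 0.45 with the pairs summed).

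**Figure D3:**
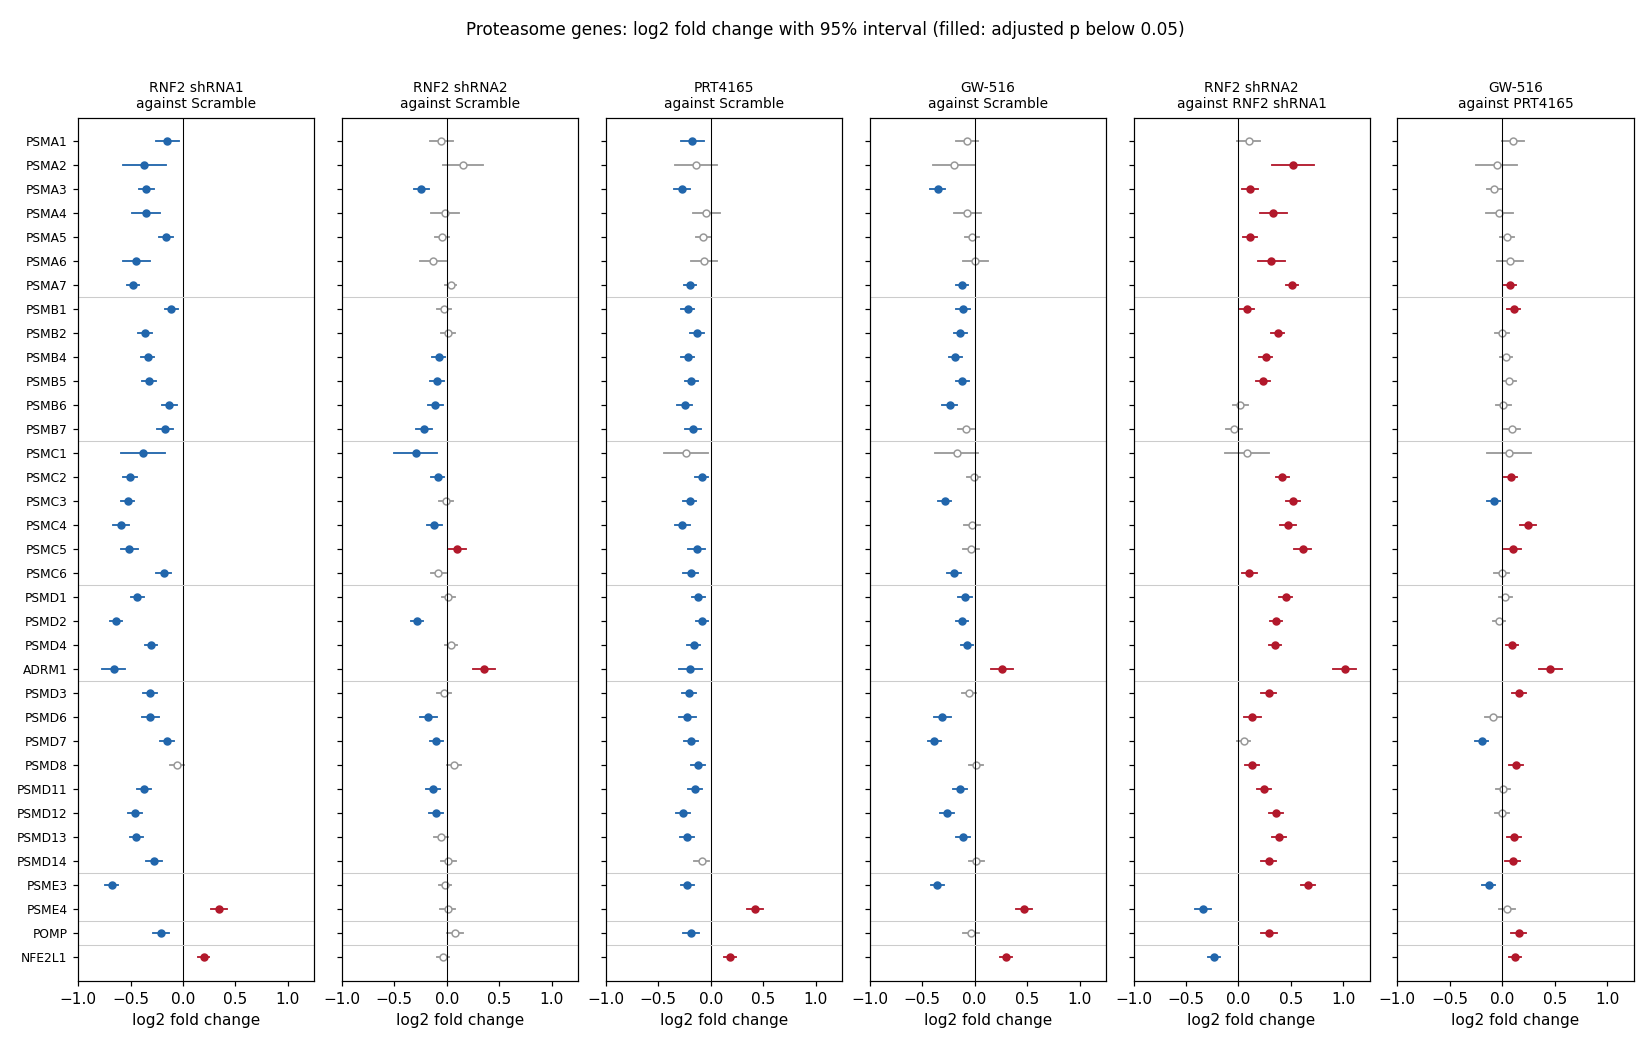
Log2 fold change (horizontal axis) of each of the 35 members with its 95% interval in 6 comparisons, 1 panel each, grouped from top to bottom as alpha ring, beta ring, ATPases, other base subunits, lid, activators, POMP and NFE2L1; filled points had an edgeR adjusted p below 0.05. RNF2 shRNA1 shows 32 decreases and 2 increases, against 13 and 2 in RNF2 shRNA2, 27 and 2 in PRT4165 and 18 and 3 in GW-516.

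PRT4165 against Scramble also gave decreases across the complex, of smaller size. In PRT4165 27 members were lower and 2 higher, with a median log2 of -0.18 against -0.01 over all genes. The test called 21.7% of genes lower and 19.9% higher. With the pairs summed, 17 members were lower and 2 higher, against 11.6% and 12.5%. With no vehicle-treated group, effects of the compound, its vehicle, the hairpin vector and separate culture cannot be told apart, here and for GW-516. All 6 measured beta-ring genes, all 4 base subunits, 5 of 6 ATPases, 7 of 8 lid subunits and 3 of 7 alpha-ring genes fell. PSMA3 fell furthest (log2 -0.28, SE 0.036, adjusted p = 1e-06), then the ATPase PSMC4 (log2 -0.27, SE 0.035, adjusted p = 8.7e-07) and the lid subunit PSMD12 (log2 -0.26, SE 0.032, adjusted p = 2.9e-07). The catalytic PSMB5, PSMB6 and PSMB7 stood at log2 -0.18, -0.25 and -0.17. The alpha-ring genes PSMA2, PSMA4, PSMA5 and PSMA6, the ATPase PSMC1 and the deubiquitinase PSMD14 were not called, with log2 values from -0.24 in PSMC1 to -0.04 in PSMA4.

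PSME4 had the largest increase among the members in PRT4165 (log2 0.42, SE 0.036, adjusted p = 3.3e-09), and NFE2L1 rose too (log2 0.18, SE 0.027, adjusted p = 4.4e-06). PSME3 fell (log2 -0.22, SE 0.03), as did POMP (log2 -0.19, SE 0.036). PSMD2, furthest down of the base scaffolds in RNF2 shRNA1, had the smallest called decrease here (log2 -0.08, SE 0.027, adjusted p = 0.019). Of the 29 calls 19 held in every alternative fit. Summing the near-identical pairs ended those of PSMB7 (adjusted p = 0.059), PSMD2 (0.36) and ADRM1 (0.067), among others.

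GW-516 against Scramble gave decreases in a smaller set of members and increases in 3. In GW-516 18 members were lower and 3 higher, with a median log2 of -0.11, while the median over all genes was between -0.01 and 0.01. The test called 29% of genes lower and 26.5% higher, so the count of members called lower stood nearer to the background than in RNF2 shRNA1 or PRT4165. With the pairs summed, 9 members were lower and 3 higher, against 18% and 15.8%. Scaled to total counts only, 9 members were lower and 5 higher, against 23.1% and 31.5% of genes. The lid subunits PSMD7 (log2 -0.38, SE 0.03, adjusted p = 9.6e-11), PSMD6 (-0.31) and PSMD12 (-0.27) fell. PSME3 fell (log2 -0.36, SE 0.03, adjusted p = 2.6e-10), and so did PSMA3 (log2 -0.35, SE 0.036, adjusted p = 1.2e-08). Of the ATPases, PSMC3 (log2 -0.28) and PSMC6 (-0.20) fell, and the other 4 were not called. The catalytic PSMB5 (log2 -0.12) and PSMB6 (-0.24) fell, while PSMB7 was not called (log2 -0.08, 95% interval -0.158 to -0.0045, adjusted p = 0.068).

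The 3 increases in GW-516 were PSME4 (log2 0.47, SE 0.036, adjusted p = 2.8e-10), NFE2L1 (log2 0.30, SE 0.027, adjusted p = 5.8e-10) and ADRM1 (log2 0.26, SE 0.05, adjusted p = 0.00044). POMP was not called (log2 -0.03, 95% interval -0.11 to 0.04). Of the 21 calls 12 held in every alternative fit, among them these 3 increases and the decreases of PSMA3, PSMB4, PSMB6, PSMC3, PSMC6, PSMD12, PSMD6, PSMD7 and PSME3. That of PSMB5 was lost with the pairs summed (adjusted p = 0.21) and under total counts (0.278).

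The compounds, both at 48 hours and at doses not given in the labels, differed from each other in 16 of 35 members. Over all genes tested 7594 of 18478 were called, so that count of members stood near the background. In GW-516 relative to PRT4165, 13 members were higher and 3 lower, with a median log2 of 0.06, against a median over all genes between -0.01 and 0.01. The test called 18.1% of genes higher and 23% lower. With the pairs summed, 2 members were higher and 1 lower, against 9.5% and 12.9%, so neither share exceeded that of all genes. Scaled to total counts only, 20 were higher and 1 lower, against 24.8% and 15.7%. ADRM1 differed most (log2 0.46, SE 0.05, adjusted p = 3.7e-06), then the ATPase PSMC4 (log2 0.25, SE 0.035, adjusted p = 3.9e-06) and the lid subunit PSMD3 (log2 0.16, SE 0.033, adjusted p = 0.00047). The members lower in GW-516 were PSMD7 (log2 -0.20, SE 0.03, adjusted p = 1.2e-05), PSME3 (log2 -0.13, SE 0.03, adjusted p = 0.00099) and the ATPase PSMC3 (log2 -0.08, SE 0.031, adjusted p = 0.032). POMP was higher (log2 0.15), as was NFE2L1 (log2 0.12), while PSME4 was not called (log2 0.04, 95% interval -0.03 to 0.12). PSMB5 (0.07), PSMB6 (0.01) and PSMB7 (0.09) were not called either. Of the 16 calls those of ADRM1, PSMC4 and PSMD7 held in every alternative fit, and with the pairs summed the adjusted p was 0.072 for PSMD3 and 0.097 for PSME3. The number of members called higher was 7 without GW-516 replicate 1 and 8 without GW-516 replicate 2, and 1 member was called lower without GW-516 replicate 1.

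Across the 4 comparisons with Scramble, which share the same 2 control libraries and so are not independent, 9 members were called lower in each: PSMA3, PSMB4, PSMB5, PSMB6, PSMD2, PSMD6, PSMD7, PSMD11 and PSMD12. Over all genes tested 3.66% were called lower in each of the 4, and 3.37% higher, while no member was higher in each. The 9 members span the alpha ring, the beta ring with 2 of its catalytic subunits, the base scaffold and the lid, and hold no ATPase. Of the 9, PSMA3 and PSMD6 kept the call in every alternative fit of all 4 comparisons. The lid subunit PSMD11, which bridges the lid to the core, stood at log2 -0.37 in RNF2 shRNA1, -0.13 in RNF2 shRNA2, -0.15 in PRT4165 and -0.14 in GW-516. PSMD6 stood at -0.31, -0.18, -0.22 and -0.31 in the same order of groups. In RNF2 shRNA1, PRT4165 and GW-516 together, 18 members were lower in each and 2 higher in each, PSME4 and NFE2L1, against 10.1% and 7.45% of all genes. ADRM1 and PSMC5 were the members called in both directions, PSMC5 being higher in RNF2 shRNA2 and lower in RNF2 shRNA1 and PRT4165.

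Other genes of the pathway were read from 6 lists, given by their counts, to be set beside the shares of all genes above, and by their medians, beside -0.01 to 0.01 over all genes. Rises and falls of single genes come from the fit on all 10 libraries, and some of those calls ended with the pairs summed. Of 13 genes that process NFE2L1 or partner with it, 7 were higher and 4 lower in RNF2 shRNA1, 6 and 2 in RNF2 shRNA2, 6 and 2 in PRT4165, and 11 and 2 in GW-516. The list median log2 was 0.24 in RNF2 shRNA1, 0.09 in RNF2 shRNA2, 0.05 in PRT4165 and 0.21 in GW-516. With the near-identical pairs summed, the counts became 6 and 3 in RNF2 shRNA1, 3 and 1 in RNF2 shRNA2, 4 and 1 in PRT4165, and 7 and 0 in GW-516. MAFF and MAFG encode small Maf proteins that pair with NFE2L1 on DNA. MAFF stood at log2 0.77 in RNF2 shRNA1, -0.22 in RNF2 shRNA2, 0.36 in PRT4165 and 0.87 in GW-516, all called, and MAFG at 0.64, 0.05 (not called), 0.21 and 0.52. NFE2L3, a close relative of NFE2L1, rose in RNF2 shRNA1 (log2 0.44), PRT4165 (0.41) and GW-516 (0.21). FBXW7, a ubiquitin ligase subunit that targets NFE2L1 for breakdown, rose in RNF2 shRNA1 (log2 0.72, adjusted p = 1e-12) and in RNF2 shRNA2 (0.30), and fell in GW-516 (-0.13). FAF2, which helps to extract proteins from the endoplasmic reticulum, fell in all 4, at log2 -0.27, -0.28, -0.28 and -0.11. With the near-identical pairs summed, neither FBXW7 nor FAF2 was called lower in GW-516. SYVN1, an endoplasmic reticulum ubiquitin ligase, rose in GW-516 (log2 0.49). The list thus holds genes that raise and genes that limit NFE2L1, and its counts give no direction for NFE2L1 activity.

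Of 8 assembly chaperones, 1 was higher and 3 lower in RNF2 shRNA1, 1 and 2 in RNF2 shRNA2, 1 and 4 in PRT4165, and 0 and 6 in GW-516. Their median log2 was -0.07 in RNF2 shRNA1, 0.03 in RNF2 shRNA2, -0.13 in PRT4165 and -0.21 in GW-516. After summing the pairs the counts were 1 and 3 in RNF2 shRNA1, 0 and 2 in RNF2 shRNA2, 0 and 3 in PRT4165, and 0 and 4 in GW-516. PSMG1, a chaperone of the alpha ring, fell in RNF2 shRNA1 (log2 -0.65, adjusted p = 4.4e-13), PRT4165 (-0.41) and GW-516 (-0.43), and rose in RNF2 shRNA2 (0.13). PSMD5, a chaperone of the cap base, fell in all 4, at log2 -0.42, -0.36, -0.25 and -0.26. PAAF1, another chaperone of the cap base, rose in RNF2 shRNA1 (log2 0.30) and fell in RNF2 shRNA2 (-0.41), PRT4165 (-0.14) and GW-516 (-0.36).

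Of 8 cap-associated factors and inhibitors, 0 were higher and 5 lower in RNF2 shRNA1, 2 and 1 in RNF2 shRNA2, 1 and 4 in PRT4165, and 2 and 4 in GW-516. The median of the 8 was log2 -0.18 in RNF2 shRNA1, 0.03 in RNF2 shRNA2, -0.11 in PRT4165 and -0.08 in GW-516. On the summed pairs they were 0 and 4 in RNF2 shRNA1, 1 and 1 in RNF2 shRNA2, 0 and 4 in PRT4165, and 2 and 2 in GW-516. USP14, a deubiquitinase that docks on PSMD2, stood at log2 -0.29 in RNF2 shRNA1, -0.02 in RNF2 shRNA2 (not called), -0.33 in PRT4165 and -0.38 in GW-516. UCHL5, the deubiquitinase that ADRM1 anchors, fell in RNF2 shRNA1 (log2 -0.38), PRT4165 (-0.22) and GW-516 (-0.42). The ligase UBE3C fell in RNF2 shRNA1 (log2 -0.27) and GW-516 (-0.15). The cap-bound thioredoxin-like TXNL1 fell in RNF2 shRNA1 (log2 -0.16), PRT4165 (-0.18) and GW-516 (-0.11), and rose in RNF2 shRNA2 (0.11). PSMF1, an inhibitor of the core, fell in RNF2 shRNA1 (log2 -0.19) and rose in RNF2 shRNA2 (0.24). ZFAND5, an activator that binds the cap, fell in RNF2 shRNA2 (log2 -0.18) and rose in PRT4165 (0.15) and GW-516 (0.23).

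Of 6 shuttle receptors, which carry ubiquitinated proteins to the cap, 3 were higher and 2 lower in RNF2 shRNA1, 0 and 3 in RNF2 shRNA2, 0 and 3 in PRT4165, and 0 and 4 in GW-516. Their median log2 values were 0.03 in RNF2 shRNA1, -0.10 in RNF2 shRNA2, -0.09 in PRT4165 and -0.13 in GW-516. Summing the pairs gave 0 and 2 in RNF2 shRNA1, 0 and 2 in RNF2 shRNA2, 0 and 1 in PRT4165, and 0 and 2 in GW-516. RAD23B fell in all 4, at log2 -0.32, -0.24, -0.23 and -0.34. UBQLN1 fell in RNF2 shRNA2 (log2 -0.28), PRT4165 (-0.09) and GW-516 (-0.13), and UBQLN2 in RNF2 shRNA1 (-0.24) and RNF2 shRNA2 (-0.14). Of 6 genes of ubiquitin and its activating enzymes, 2 were higher and 3 lower in RNF2 shRNA1, 0 and 2 in RNF2 shRNA2, 1 and 3 in PRT4165, and 2 and 3 in GW-516. The median log2 here was 0.03 in RNF2 shRNA1, -0.06 in RNF2 shRNA2, -0.06 in PRT4165 and -0.14 in GW-516. With summed pairs these were 0 and 2 in RNF2 shRNA1, 0 and 1 in RNF2 shRNA2, 1 and 1 in PRT4165, and 1 and 1 in GW-516. UBA1, the main activating enzyme, fell in all 4, at log2 -0.42, -0.10, -0.17 and -0.29. UBB, a ubiquitin gene, fell in RNF2 shRNA1 (log2 -0.31), RNF2 shRNA2 (-0.23) and PRT4165 (-0.07), and rose in GW-516 (0.16).

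The inducible immunoproteasome subunits, which replace catalytic subunits of the beta ring in immune responses, were lower than Scramble in all 4 groups for PSMB8 and PSMB9, and lowest in RNF2 shRNA2. PSMB8, the counterpart of PSMB5, had 6.63 and 6.30 CPM in RNF2 shRNA1, 4.38 and 3.94 in RNF2 shRNA2, 5.83 and 5.94 in PRT4165, 5.47 and 5.68 in GW-516, and 10.7 and 10.5 in Scramble. All 8 libraries lay below Scramble, those labelled RNF2 shRNA2 the furthest (log2 -0.71 in RNF2 shRNA1, -1.36 in RNF2 shRNA2, -0.85 in PRT4165 and -0.93 in GW-516). PSMB9, the counterpart of PSMB6, had 2.46 and 2.37 CPM in RNF2 shRNA1, 0.772 and 0.69 in RNF2 shRNA2, 1.56 and 1.21 in PRT4165, 1.48 and 1.26 in GW-516, and 3.38 and 3.47 in Scramble. Both RNF2 shRNA2 libraries were again the lowest (log2 -2.23, adjusted p = 3.8e-10), against -0.50 in RNF2 shRNA1, -1.29 in PRT4165 and -1.32 in GW-516. Between the hairpin groups PSMB9 was lower in RNF2 shRNA2 than in RNF2 shRNA1, at log2 -1.73 (adjusted p = 1.8e-08), opposite in direction to PSMB5 in that comparison. PSMB10, the counterpart of PSMB7, was not called in any comparison with Scramble, with log2 values from -0.01 in RNF2 shRNA2 to 0.22 in RNF2 shRNA1. PSME1 and PSME2 encode the interferon-induced activator. PSME1 stood at log2 0.30 in RNF2 shRNA1, -0.15 in RNF2 shRNA2, -0.18 in PRT4165 and -0.27 in GW-516, and PSME2 at -0.09, -0.16, -0.39 and -0.36, all called. Of the 5 genes of that list, 1 was higher and 3 lower in RNF2 shRNA1, and 0 were higher and 4 lower in each of RNF2 shRNA2, PRT4165 and GW-516. The median log2 of the 5 was -0.09 in RNF2 shRNA1, -0.16 in RNF2 shRNA2, -0.39 in PRT4165 and -0.36 in GW-516. The counts on summed pairs were 1 and 1 in RNF2 shRNA1, 0 and 3 in RNF2 shRNA2, 0 and 4 in PRT4165, and 0 and 4 in GW-516.

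**Figure D4:**
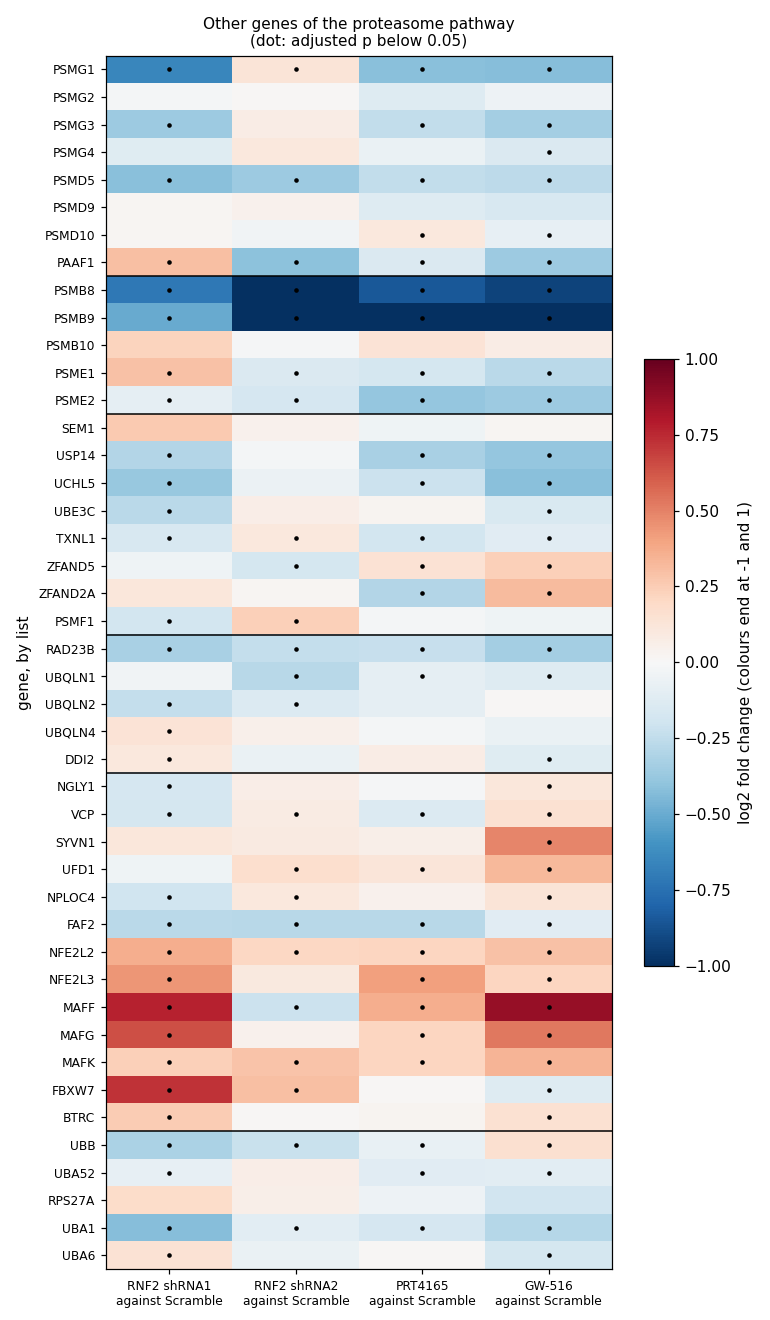
Log2 fold change against Scramble (colour, ending at -1 and 1) of 44 other genes of the proteasome pathway (columns for RNF2 shRNA1, for RNF2 shRNA2, for PRT4165 and for GW-516), in rows grouped by list with lines between lists; a dot marks an edgeR adjusted p below 0.05. PSMB8 and PSMB9 form the darkest block of decreases, and MAFF is the strongest increase in RNF2 shRNA1 and GW-516.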

How the data were processed

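The authors deposited raw counts per gene for each library, made per the file headers with featureCounts 1.4.3-p1 on GENCODE 18 with strand option 2 and no read-pair option, so that each end of a fragment was counted. The submitters' processing notes name GRCh37 (hg19), STAR and DESeq2 1.8.1. Gene symbols were matched for 51488 of 57445 identifiers.

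Genes passing edgeR's filterByExpr (minimum count 10) were scaled by TMM and tested with edgeR 4.0.16 quasi-likelihood fits in R 4.3.3, with 1 coefficient per group, all 10 libraries and 5 residual degrees of freedom. P-values were adjusted by Benjamini-Hochberg over 18478 genes, with a threshold of 0.05. Standard errors and 95% intervals of log2 fold changes come from that fit, whose common biological coefficient of variation was 0.034. TMM-normalized CPM were computed from the deposited counts, and CPM per kb used the gene length in the count tables. The fit was tested on simulated counts of 10 independently drawn libraries with 1 common spread. Those data held no near-identical pairs, so that test cannot show whether calls hold with such pairs.

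Members and lists were chosen with earlier results of these data known. Named members are PSMB5, PSMB6, PSMB7, NFE2L1, POMP, PSME3, PSME4 and, in each comparison, the 3 highest and 3 lowest called log2 fold changes. In each pathway list the 2 genes with the smallest adjusted p in each comparison were named, apart from some that are not reported here, and PSMB9, PSMB10, MAFF and MAFG are also described throughout after their values were seen, as are PSMA7 and the other members beyond that rule. Alternatives were DESeq2 1.42.0, limma-voom (limma 3.58.1), other scalings and filters, only the groups compared, stricter thresholds, a replicate block, each replicate left out, the libraries labelled RNF2 shRNA2 left out, and the near-identical pairs of RNF2 shRNA1, GW-516 and Scramble summed, which leaves 2 residual degrees of freedom. The header names of the libraries labelled RNF2 shRNA2 and GW-516 carry other codes than the labels, and groups were taken from the labels.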

Additional observations from a re-analysis of the deposited data

How the results depend on the processing

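Counts of members called are given as higher, then lower. Shares of all genes are given above for the summed pairs and, in both comparisons of GW-516, for total counts. For the other alternatives no share of all genes is given, so whether those shifts are particular to the members cannot be read from them. In RNF2 shRNA1 against Scramble they were 1 higher at a change of at least 1.2-fold, and 2 higher and 30 to 32 lower with any 1 library left out. In RNF2 shRNA2 against Scramble 1 member was higher under total counts, limma-voom, a filter of 1 CPM, only the groups compared, the summed pairs, an adjusted p below 0.01 and a 1.2-fold change. There 4 were lower with the pairs summed, 8 at an adjusted p below 0.01 and 2 at 1.2-fold, and leaving out 1 library gave 1 to 4 higher, with 4 without PRT4165 replicate 2, and 6 to 18 lower. In PRT4165 against Scramble 1 was higher at 1.2-fold, 17 were lower with the pairs summed and 3 at 1.2-fold, against 2 higher and 21 to 29 lower with 1 library left out. In GW-516 against Scramble 5 were higher and 9 lower under total counts, 9 lower with the pairs summed and 6 lower at 1.2-fold, against 3 higher and 12 to 20 lower with 1 library left out. In RNF2 shRNA2 against RNF2 shRNA1 1 was lower at 1.2-fold, and leaving out 1 library gave 23 to 30 higher and 2 to 3 lower. In GW-516 against PRT4165 20 were higher and 1 lower under total counts, 2 and 1 with the pairs summed, 1 and 0 at 1.2-fold (3 lower by edgeR at any size), and 8 higher at an adjusted p below 0.01. Leaving out 1 library there gave 7 to 15 higher and 1 to 4 lower. PSMD4 in GW-516 against Scramble turned to log2 0.0026 under total counts (adjusted p = 0.947), a scaling that moves the median of all genes in this comparison by 0.075, to 0.07. The summed pairs leave fewer samples and total counts omit the TMM factor, and the cause of the other shifts was not tested. With replicate number as a replicate block the counts were 2 and 32, 2 and 12, 2 and 28, 3 and 18, 28 and 2, and 12 and 3 in these 6 comparisons in the order above. Without the libraries labelled RNF2 shRNA2 they were 2 and 32 in RNF2 shRNA1, 2 and 29 in PRT4165, 3 and 20 in GW-516, each against Scramble, and 16 and 4 in GW-516 against PRT4165. Deviations of same-numbered libraries correlated at -0.087 to 0.016. The near-identical pairs differ by little more than counting noise, so these correlations cannot decide whether the numbers pair the samples.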
